A study of Mus musculus with 6 samples.

Results

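The genes described here encode ATP-dependent chromatin remodelers of the SWI/SNF (BAF), ISWI, CHD, INO80 and TIP60 types, the MTA subunits of the NuRD complex, and the zinc-dependent histone deacetylases (HDACs). They are 50 genes, taken from a list of symbols, out of 19938 genes that had a transcript cluster with exactly 1 symbol in the array annotation. Where a gene had several such clusters, the cluster with the highest mean over all arrays stands for it. RNA was profiled on whole-transcript Affymetrix mouse arrays, 1 sample per array, from N2A cells, a mouse neuroblastoma line. Each culture had received, by transient transfection, 1.5 µg of either a hairpin vector that targets *Paupar*, a long noncoding RNA made upstream of *Pax6* (knockdown, n = 3), or a non-targeting vector (control, n = 3). Both groups were grown in medium with 10% serum. The study's methods give a range of days from transfection to RNA, of which 2.5 days is the midpoint. A legend for its first knockdown experiment gives 3 days, and the array labels give no time. The labels name no selection for the vector, so untransfected cells may be part of each sample, and all 6 samples come from the same line. The values are log2 RMA expression values, in which a difference of 1 is a doubling. No cluster was assigned to *Paupar*, so the size of the knockdown was not analysed here.

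SWI/SNF complexes use the ATPase *Smarca4* (BRG1) or *Smarca2* (BRM) to slide and evict nucleosomes. Their make-up changes as neural progenitors become neurons: *Actl6a* (BAF53A) and *Ss18* products give way to the neuronal *Actl6b* (BAF53B) and *Ss18l1* (CREST). *Dpf1* (BAF45B) and *Dpf3* (BAF45C) are neuron-rich relatives of the more general *Dpf2*. ISWI enzymes space nucleosomes, CHD enzymes carry chromodomains that bind histone tails, and NuRD joins a CHD ATPase (*Chd3*, *Chd4* or the neuronal *Chd5*) to the deacetylases *Hdac1* and *Hdac2* through MTA proteins. Class I HDACs act mainly in the nucleus, class IIa HDACs shuttle between nucleus and cytoplasm and repress MEF2 factors, and class IIb enzymes deacetylate tubulin (*Hdac6*) and polyamines (*Hdac10*).

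The first sequence is the DNA oligonucleotide for the hairpin named sh408, the *Paupar* hairpin that the study names for its first knockdown experiment in these cells. It is shown because a hairpin against *Paupar* is what separates the groups, although the array labels do not say which hairpin was used. Capitals mark the loop and the 3′ end with its run of T, which stops transcription, and the stretches on either side of the loop are reverse complements of each other apart from bases at their ends.
Pauparsh408FOR: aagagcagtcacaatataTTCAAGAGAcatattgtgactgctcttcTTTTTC
The promoter windows that follow belong to the member that passed the test (*Chd9*) and to pairs of related members whose values differed in opposite directions (the ISWI ATPases *Smarca1* and *Smarca5*, and the BAF45 subunits *Dpf1* and *Dpf3*). Each window runs from 250 bases before to 50 bases after an annotated start (RefSeq, GRCm38.p6), 5′ to 3′ on the strand of the gene. Capitals mark CCAAT, the letters of the CCAAT box bound by NF-Y, or its reverse complement ATTGG.
*Chd9*, chr8:90828585-90828884, plus strand: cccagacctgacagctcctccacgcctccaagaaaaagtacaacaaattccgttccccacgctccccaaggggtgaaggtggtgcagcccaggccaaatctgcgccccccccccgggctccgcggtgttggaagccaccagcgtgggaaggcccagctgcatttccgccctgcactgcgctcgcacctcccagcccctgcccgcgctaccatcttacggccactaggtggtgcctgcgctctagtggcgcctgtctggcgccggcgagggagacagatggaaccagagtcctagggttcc
*Smarca1*, chrX:47892564-47892863, minus strand: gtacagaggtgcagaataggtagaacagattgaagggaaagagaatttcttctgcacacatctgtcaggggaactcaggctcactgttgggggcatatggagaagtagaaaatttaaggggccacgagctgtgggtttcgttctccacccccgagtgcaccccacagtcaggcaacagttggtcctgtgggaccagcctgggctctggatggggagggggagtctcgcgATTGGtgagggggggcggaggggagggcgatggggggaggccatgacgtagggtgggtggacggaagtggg
*Smarca5*, chr8:80739410-80739709, minus strand: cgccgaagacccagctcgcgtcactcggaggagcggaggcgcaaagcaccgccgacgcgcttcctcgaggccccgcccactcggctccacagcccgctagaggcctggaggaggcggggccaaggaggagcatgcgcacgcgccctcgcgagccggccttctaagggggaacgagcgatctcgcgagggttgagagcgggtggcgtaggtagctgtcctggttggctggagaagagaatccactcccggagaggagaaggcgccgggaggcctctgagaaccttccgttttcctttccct
*Dpf1*, chr7:29303755-29304054, plus strand: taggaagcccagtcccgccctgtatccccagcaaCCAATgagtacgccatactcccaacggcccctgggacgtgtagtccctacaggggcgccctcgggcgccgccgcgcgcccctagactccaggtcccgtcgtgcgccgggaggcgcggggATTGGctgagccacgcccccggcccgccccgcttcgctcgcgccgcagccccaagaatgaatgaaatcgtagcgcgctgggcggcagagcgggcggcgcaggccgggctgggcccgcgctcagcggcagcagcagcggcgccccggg
*Dpf3*, chr12:83487687-83487986, minus strand: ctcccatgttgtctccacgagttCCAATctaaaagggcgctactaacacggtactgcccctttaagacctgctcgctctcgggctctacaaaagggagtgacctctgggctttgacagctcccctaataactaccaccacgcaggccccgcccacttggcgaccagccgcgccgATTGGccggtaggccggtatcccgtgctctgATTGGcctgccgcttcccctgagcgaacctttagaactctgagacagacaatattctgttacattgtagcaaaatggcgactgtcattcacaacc

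The windows of the related genes were unlike each other. *Smarca5* had 32 CpG dinucleotides in its window, against 9 in that of *Smarca1*, and *Dpf1* had 39, against 17 in that of *Dpf3*. CCAAT letters stood 3 times in the *Dpf3* window, 2 times in that of *Dpf1*, once in that of *Smarca1* and in neither of the windows of *Smarca5* and *Chd9*. The second annotated *Chd9* window, which is not printed, had a GC content of 34.7% and 1 CpG, against 65.7% and 19 CpG in the first. Windows were found for 39 of the 50 genes, 48 windows in all, with a median GC content of 66.33% and a median of 30.5 CpG, against 52.67% and 7 CpG over all 32851 windows. CCAAT, searched on both strands, was in 15 of the 48 windows (31.2%), against 37.4% of all windows. The E2F letters TTTCCCGC or TTTGGCGC, searched on both strands, were in the windows of *Arid1a*, *Brd7* and *Smarcd1* (6.25% of windows), against 1.56% of all windows. The NRF1 motif in its palindromic form, which reads alike on both strands, was in 0 of the 48 windows, against 0.971% of all windows. These counts describe letters only.

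Array medians over all named genes lay between 7.85 and 7.92, and correlations between arrays over the named genes lay between 0.990 and 0.998. The arrays did not fall cleanly into the labelled groups: knockdown arrays 1 and 2 were closest to each other (0.998), knockdown array 3 reached 0.996 with control array 3, and control array 1 was at 0.990 with knockdown array 1. Of 10 measured markers of sympathetic neuroblastoma cells, 8 passed the filter. *Th*, *Dbh* and *Chgb* were called lower in the knockdown and 0 were called higher, beside 5.16% and 2.39% of all tested genes. The knockdown arrays were lower with no overlap in 4, beside 10.8% of all named genes, and 9 of the 10 had a negative log2 fold change (median -0.21). Of 21 measured markers of glia, blood, endothelium, fibroblasts and muscle, 9 passed the filter and 0 were called, beside 7.54% of all tested genes. However, 18 of the 21 had a positive log2 fold change (median 0.11), beside 58.4% of all named genes. The knockdown arrays were higher with no overlap in 5, beside 12.8% of all named genes. The markers of other cell types had values between 5.84 and 8.32 on the knockdown arrays and between 5.57 and 8.58 on the control arrays, and no detection calls come with the values, so absence could not be read from them. The sympathetic factor *Hand2* had 11.95, 11.83 and 12.04 on the knockdown arrays, against 12.01, 12.05 and 12.07 on the control arrays. In bulk RNA, fewer cells of a type and less RNA per cell cannot be told apart, and the part that these differences between arrays and markers have in the results below was not tested.

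The comparison asked which remodeler and HDAC genes differed in level when *Paupar* was knocked down. After removal of the 50% of genes with the lower interquartile range, 25 of the 50 members were tested and 25 were not. *Chd9* was called lower in the knockdown (limma, Benjamini-Hochberg adjusted p under 0.05 over the 9969 genes tested), 0 members were called higher and 24 tested members were not called. Over all tested genes 7.54% were called, 2.39% higher and 5.16% lower. With 25 members tested, 1 call does not set the members apart from that share. Of all 50 members, 25 had a positive and 25 a negative log2 fold change, with a median of 0.00, against 0.03 over all named genes. The median size of the change regardless of sign was 0.15 in the members and 0.11 over all named genes. Knockdown and control arrays did not overlap in 19 members, 10 of them higher and 9 lower in the knockdown, against 23.5% of all named genes (12.8% higher and 10.8% lower) and 31.1% of those that passed the variance filter.

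**Figure D1:**
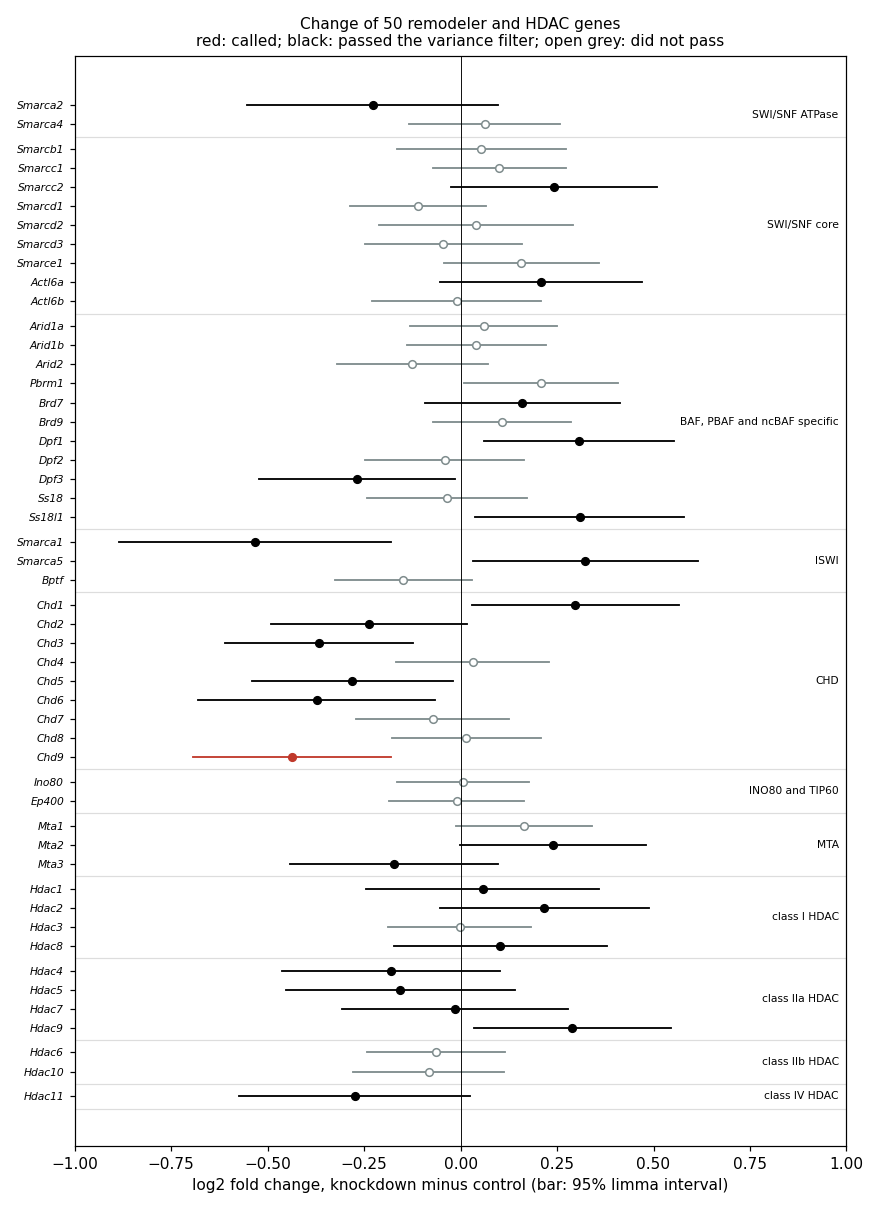
Log2 fold change, knockdown minus control, of the 50 genes by role, with 95% limma intervals as bars. Filled points passed the variance filter, open grey points did not, and the red point is *Chd9*, the member called. Changes run between -0.53 (*Smarca1*) and 0.32 (*Smarca5*), and most intervals cross 0.

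The intervals give the size of change that the arrays leave possible. The 95% limma interval excluded 0 in 12 of the 50 members before any adjustment, a count that draws on the fits with and without the filter. In the fit after the filter, 11 of the 25 tested members had an unadjusted limma p under 0.05, against 26.3% of all genes tested. In the fit without the filter, 15 of the 50 members did, against 18.4% of all named genes. The interval lay wholly within a 1.5-fold change in either direction in 45 members, and reached past 1.5-fold in *Smarca1*, *Smarca5*, *Chd3*, *Chd6* and *Chd9*. The distance from the estimate to either end of the interval lay between 0.17 and 0.35 on the log2 scale, with a median of 0.24. A member that was not called is therefore not shown to be unchanged.

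The CHD family held the called gene and most of the larger negative values. Of its 9 genes, 6 had a negative and 3 a positive log2 fold change, and the arrays did not overlap in 6, with 5 lower and 1 higher in the knockdown, beside 31.1% of the genes that passed the filter, as these 6 did, and 23.5% of all named genes. The median log2 fold change of the family was -0.24. *Chd9*, a chromodomain helicase described as a nuclear receptor coactivator, had 10.33, 10.16 and 10.15 on knockdown arrays 1, 2 and 3, against 10.67, 10.74 and 10.54 on control arrays 1, 2 and 3. All knockdown arrays were below all control arrays. The mean was 10.21 ± 0.10 in the knockdown and 10.65 ± 0.10 in the control (SD, n = 3 each), a log2 fold change of -0.44 (1.35-fold lower, 95% interval -0.69 to -0.18, limma adjusted p = 0.0423). The call rested on all 6 arrays: with any 1 of them left out the log2 fold change lay between -0.50 and -0.39 and the adjusted p between 0.0540 and 0.178. It was also lost, at adjusted p = 0.0547, with the replicate number as a block.

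The CHD ATPases of NuRD differed among themselves. *Chd3* had 9.61, 9.60 and 9.51 on the knockdown arrays, against 9.92, 9.99 and 9.90 on the control arrays. Every knockdown array was below every control array, and the spread within each group was small. The log2 fold change was -0.37 (95% interval -0.61 to -0.12, SE 0.11), which missed the threshold after the variance filter (limma adjusted p = 0.0624) and passed it when all 19938 genes were tested (adjusted p = 0.0417, where 3.07% of genes were called). *Chd5*, the neuronal paralogue and a tumour suppressor lost in human neuroblastoma, had 8.80, 8.72 and 8.80 on the knockdown arrays, against 9.22, 9.04 and 8.91 on the control arrays. The groups did not overlap, and control array 1 was the farthest from the knockdown arrays. Its log2 fold change was -0.28 (95% interval -0.54 to -0.02, limma adjusted p = 0.163). *Chd4*, the general NuRD ATPase, had 11.94, 11.92 and 11.73 on the knockdown arrays, against 11.78, 11.88 and 11.82 on the control arrays. The groups overlapped, with the highest and the lowest value both in the knockdown, and the log2 fold change was 0.03 (95% interval -0.17 to 0.23).

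Outside NuRD, *Chd6*, a remodeler linked to oxidative stress responses, had 9.91, 9.91 and 10.13 on the knockdown arrays, against 10.67, 10.26 and 10.14 on the control arrays. The groups did not overlap, but knockdown array 3 lay next to control array 3, and control array 1 stood above the rest. The log2 fold change was -0.37 (95% interval -0.68 to -0.07, limma adjusted p = 0.124), or -0.22 without control array 1, and a second cluster of the gene was at -0.12. *Chd2*, which deposits a histone variant, was at -0.24 with no overlap (adjusted p = 0.215). *Chd1*, which binds methylated histone tails at active promoters, had the largest positive value of the family: it had 10.64, 10.56 and 10.36 on the knockdown arrays, against 10.22, 10.34 and 10.10 on the control arrays. The lowest knockdown array was just above the highest control array, and the log2 fold change was 0.30 (95% interval 0.03 to 0.57, limma adjusted p = 0.153). *Chd7*, mutated in CHARGE syndrome, was at -0.07 and its relative *Chd8*, mutated in autism, at 0.02, both with overlapping groups.

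**Figure D2:**
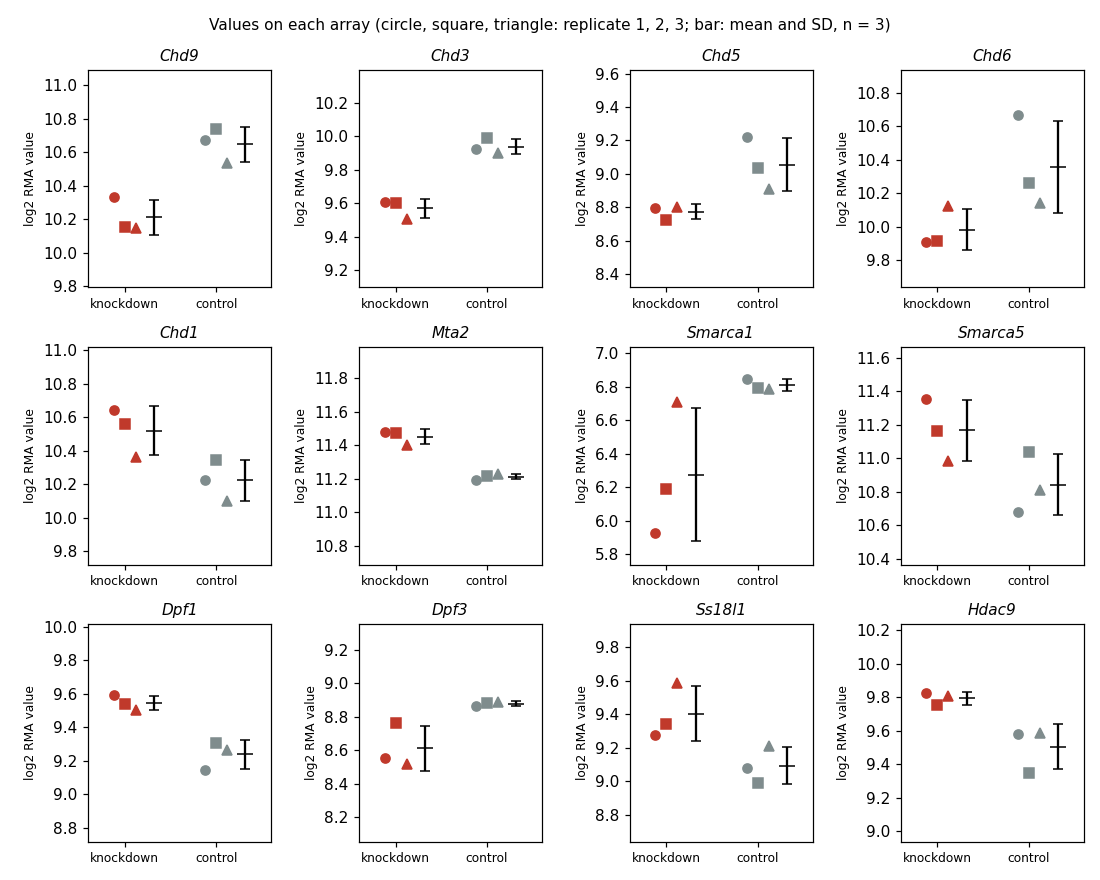
Log2 RMA values of 12 members on each array, knockdown left of control, with the mean and SD (n = 3) as bars; every panel spans the same length on the log2 scale. *Chd9*, *Chd3*, *Mta2* and *Dpf1* separate by group with small spread, while *Smarca1* and *Chd6* each have an array near the other group (knockdown 3 and control 3).

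The ISWI ATPases held the lowest and the highest fitted change of the 50 members. *Smarca1* (SNF2L), the ISWI ATPase enriched in neurons, had 5.93, 6.19 and 6.71 on the knockdown arrays, against 6.85, 6.79 and 6.79 on the control arrays. The control arrays were nearly level, whereas the knockdown arrays were spread, and knockdown array 3 was just below the lowest control array. The log2 fold change was -0.53 (95% interval -0.89 to -0.18, limma adjusted p = 0.0619). All 6 values lay within the range of the markers of other cell types, so the probe was not shown to be above background and the size of the difference is uncertain. It passed the threshold without knockdown array 3 (-0.75, adjusted p = 0.00556) and with the replicate number as a block (adjusted p = 0.0445), but not without control arrays 1, 2 or 3 (adjusted p = 0.134, 0.0784 and 0.182) or without the variance filter (0.123), and it did not pass the filter without knockdown array 1 (-0.36) or 2 (-0.49). *Smarca5* (SNF2H), the ISWI ATPase of dividing cells, had 11.35, 11.16 and 10.99 on the knockdown arrays, against 10.68, 11.04 and 10.81 on the control arrays. Knockdown array 3 overlapped control array 2, and the log2 fold change was 0.32 (1.25-fold higher, 95% interval 0.03 to 0.61, limma adjusted p = 0.152). A pseudogene, *Smarca5-ps*, shares 3 further clusters with *Smarca5* in the annotation, so part of the *Smarca5* signal could come from a near-identical copy. *Bptf*, the histone-reading subunit of the NURF complex that *Smarca1* drives, was at -0.15 with no overlap (95% interval -0.33 to 0.03).

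Of the 22 SWI/SNF genes, 14 had a positive and 8 a negative log2 fold change, 0 of the 7 tested were called, and the arrays did not overlap in 8 (6 higher and 2 lower in the knockdown), beside 7.54% of tested genes called and 23.5% of all named genes with no overlap. The ATPases had overlapping groups. *Smarca2* had 9.37, 9.42 and 9.93 on the knockdown arrays, against 9.92, 9.64 and 9.85 on the control arrays. Knockdown array 3 was the highest of all arrays, and the log2 fold change was -0.23 (95% interval -0.55 to 0.10, limma adjusted p = 0.348), and between -0.41 and -0.13 with 1 array left out. *Smarca4* was at 0.06 (95% interval -0.13 to 0.26).

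Among the 9 core subunits the log2 fold changes lay between -0.11 (*Smarcd1*) and 0.24 (*Smarcc2*). *Smarcc2* (BAF170), a scaffold subunit that limits neurogenesis in the mouse cortex, had 10.72, 10.63 and 10.42 on the knockdown arrays, against 10.23, 10.44 and 10.38 on the control arrays. The groups overlapped by knockdown array 3 and control array 2, and the limma adjusted p was 0.229. Its partner *Smarcc1* (BAF155) was at 0.10 with no overlap, *Smarce1* (BAF57) at 0.16, *Smarcb1* (SNF5) at 0.05, and the BAF60 subunits *Smarcd1*, *Smarcd2* and *Smarcd3* at -0.11, 0.04 and -0.04. On every array *Smarcd3* lay within the range of the markers of other cell types, so it was not shown to be above background. *Actl6a*, the actin-related subunit of progenitors and dividing cells, had 12.14, 12.11 and 12.14 on the knockdown arrays, against 11.76, 11.91 and 12.09 on the control arrays. The knockdown arrays were nearly level and above all control arrays, and the log2 fold change was 0.21 (95% interval -0.05 to 0.47, limma adjusted p = 0.283), or 0.13 without control array 1. Its neuronal counterpart *Actl6b* had 9.04, 8.96 and 9.27 on the knockdown arrays, against 9.07, 9.15 and 9.08 on the control arrays. The control values lay inside the range of the knockdown values, and the log2 fold change was -0.01 (95% interval -0.23 to 0.21).

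The subunits that set BAF, PBAF and ncBAF apart gave the larger SWI/SNF values. *Dpf1* had 9.59, 9.54 and 9.50 on the knockdown arrays, against 9.14, 9.31 and 9.26 on the control arrays. Every knockdown array was above every control array, and the log2 fold change was 0.31 (1.24-fold higher, 95% interval 0.06 to 0.55, limma adjusted p = 0.115). *Dpf3*, a histone-reading BAF45 subunit of heart, muscle and neurons, had 8.55, 8.76 and 8.52 on the knockdown arrays, against 8.86, 8.88 and 8.89 on the control arrays. The control arrays were nearly level and above all knockdown arrays, and the log2 fold change was -0.27 (95% interval -0.52 to -0.01, limma adjusted p = 0.171). *Dpf2*, the BAF45 subunit of most cells, had 11.87, 11.74 and 11.95 on the knockdown arrays, against 11.91, 11.79 and 11.99 on the control arrays. The groups overlapped almost fully, and the log2 fold change was -0.04 (95% interval -0.25 to 0.17).

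*Ss18l1*, the calcium-responsive coactivator CREST of neurons, had 9.28, 9.34 and 9.59 on the knockdown arrays, against 9.08, 8.99 and 9.21 on the control arrays. The groups did not overlap, with knockdown array 3 the highest, and the log2 fold change was 0.31 (95% interval 0.04 to 0.58, limma adjusted p = 0.143). *Ss18*, its general paralogue, had 8.68, 8.68 and 8.59 on the knockdown arrays, against 8.53, 8.73 and 8.80 on the control arrays. The knockdown values lay inside the range of the control values, and the log2 fold change was -0.04 (95% interval -0.24 to 0.17). *Pbrm1*, the polybromo subunit of PBAF, was at 0.21 with no overlap (95% interval 0.01 to 0.41), and its other clusters were at 0.13 and 0.15. The remaining PBAF subunits among the members, *Arid2* and *Brd7*, were at -0.13 and 0.16. The ncBAF subunit *Brd9* was at 0.11, and the BAF subunits *Arid1a* and *Arid1b* were at 0.06 and 0.04.

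The neural and general subunits were then set side by side as the within-array log2 difference of each pair, neural minus general, and its mean over the knockdown arrays was compared with that over the control arrays. An exact two-sided permutation test over 3 and 3 arrays cannot go below p = 0.1, so no pair could pass 0.05. The neural member was lower relative to its partner in the knockdown in 4 of the 6 pairs and higher in 2. The pairs of *Dpf1* and *Dpf3* share the same *Dpf2* values, so the 6 pairs are not separate comparisons. No such count was made over other pairs of genes. The difference of *Smarca1* minus *Smarca5* was -0.86, with pair values of -5.43, -4.97 and -4.28 on the knockdown arrays and -3.83, -4.25 and -4.03 on the control arrays (exact permutation p = 0.1, 0.15 adjusted over the 6 pairs). The groups did not overlap, but knockdown array 3 lay next to control array 2, and *Smarca1* was not shown to be above background. *Chd5* minus *Chd4* was at -0.31, with no overlap (exact permutation p = 0.1, adjusted 0.15). *Dpf1* minus *Dpf2* was at 0.35 and *Ss18l1* minus *Ss18* at 0.34, both with no overlap (exact permutation p = 0.1, adjusted 0.15). *Actl6b* minus *Actl6a* was at -0.22 and *Dpf3* minus *Dpf2* at -0.23, both with overlapping groups (exact permutation p = 0.2 and 0.3, adjusted 0.24 and 0.3). The pair differences of *Chd5*, *Dpf1*, *Dpf3* and *Ss18l1* came mostly from the neural member and that of *Actl6b* from *Actl6a*, whereas in the ISWI pair the members had opposite signs (-0.53 and 0.32).

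**Figure D3:**
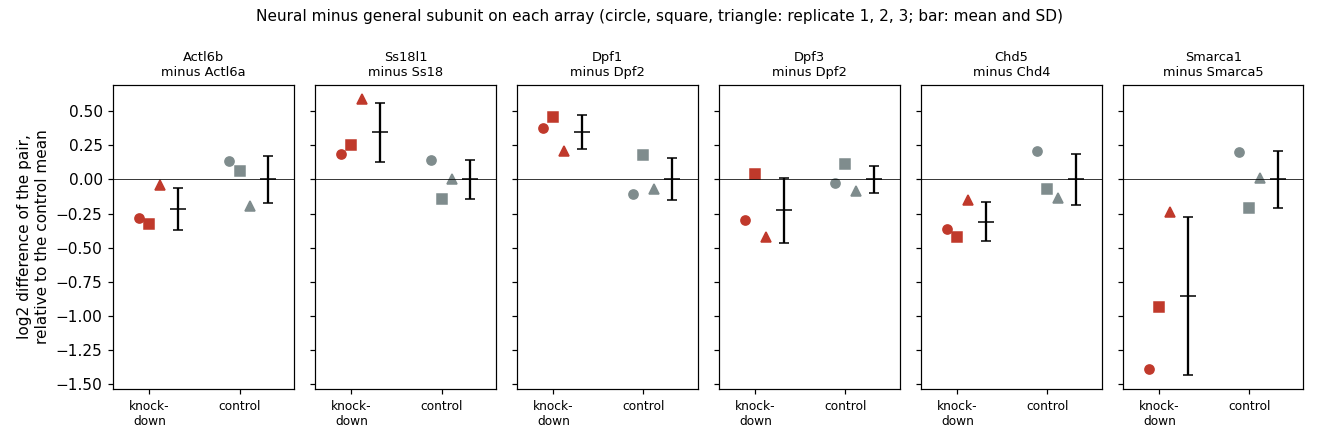
Within-array log2 difference, neural minus general member, for 6 pairs, shown relative to the control mean, with the mean and SD (n = 3) as bars. The knockdown arrays lie above the control arrays for *Ss18l1* and *Dpf1* and below them for *Chd5* and *Smarca1*. For *Actl6b* and *Dpf3*, 2 of the 3 knockdown arrays lie below every control array and 1 lies among them.

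The MTA subunits, which hold the deacetylases in NuRD, had 0 calls among the 2 tested, beside 7.54% of all tested genes called. *Mta2* had 11.48, 11.48 and 11.40 on the knockdown arrays, against 11.20, 11.22 and 11.23 on the control arrays. Both groups were tight and did not overlap, and the log2 fold change was 0.24 (95% interval -0.00 to 0.48, SE 0.11, limma adjusted p = 0.191). *Mta1* was at 0.16 with no overlap, and *Mta3* at -0.17 with overlap (adjusted p = 0.391). Together with *Chd3*, *Chd4*, *Chd5*, *Hdac1* and *Hdac2*, the NuRD members numbered 8. Of these, 5 had a positive and 3 a negative log2 fold change, beside 58.4% of all named genes positive.

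Of the 11 HDACs, 8 were tested and 0 were called, beside 7.54% of all tested genes. The log2 fold change was positive in 4 and negative in 7, beside 58.4% of all named genes positive. The groups did not overlap in *Hdac9* alone, beside 23.5% of all named genes. *Hdac9*, a class IIa enzyme, had 9.83, 9.75 and 9.81 on the knockdown arrays, against 9.58, 9.35 and 9.59 on the control arrays. Control array 2 was the lowest, and the log2 fold change was 0.29 (1.22-fold higher, 95% interval 0.03 to 0.55, limma adjusted p = 0.145). The other class IIa enzymes had negative values, -0.18 for *Hdac4*, -0.16 for *Hdac5* and -0.01 for *Hdac7*, and overlapping groups. On these 3 genes knockdown array 3 was the highest knockdown array and control array 1 the highest control array. A second *Hdac4* cluster was at -0.37.

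Among class I enzymes, *Hdac2*, the partner of *Hdac1* in NuRD, SIN3 and CoREST complexes, had 11.98, 11.94 and 11.74 on the knockdown arrays, against 11.65, 11.83 and 11.53 on the control arrays. Knockdown array 3 overlapped control array 2, and the log2 fold change was 0.22 (95% interval -0.05 to 0.49, limma adjusted p = 0.280). *Hdac1* was at 0.06, *Hdac3*, the deacetylase of NCoR complexes, at -0.00 and *Hdac8*, which deacetylates cohesin, at 0.10. The *Hdac8* values also lay within the range of the markers of other cell types on every array, so *Hdac8* was not shown to be above background. *Hdac11*, the class IV enzyme, had 8.87, 8.95 and 9.17 on the knockdown arrays, against 9.53, 9.08 and 9.21 on the control arrays. Knockdown array 3 overlapped control array 2 and control array 1 stood above the rest, with a log2 fold change of -0.27 (95% interval -0.58 to 0.03, limma adjusted p = 0.224), or -0.15 without control array 1. *Hdac10* had 9.01, 8.89 and 8.86 on the knockdown arrays, against 8.92, 9.11 and 8.98 on the control arrays. These groups overlapped, with log2 fold changes of -0.08 for *Hdac10* and -0.06 for *Hdac6*. The ATPases of INO80 and TIP60 were close to level: *Ino80* was at 0.01, and *Ep400* had 10.57, 10.48 and 10.58 on the knockdown arrays, against 10.58, 10.58 and 10.51 on the control arrays. Its values overlapped, with a log2 fold change of -0.01 (95% interval -0.19 to 0.17).

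Over the members, the same arrays recurred at the edges. Knockdown array 3 was the knockdown array shifted least in the direction of the gene's log2 fold change in 29 of 50 members (58%), against 52.7% of all named genes. Control array 1 was the control array lying farthest in the opposite direction in 25 of 50 (50%), against 37.5%. Both arrays were the highest of their groups in 11 members (22%), against 17.7% of all named genes, and both the lowest in 14 (28%), against 16.4%. The first set includes *Smarca1*, *Smarca2*, *Chd5*, *Chd6*, *Hdac4*, *Hdac5*, *Hdac7* and *Hdac11*, the second *Smarca5*, *Smarcc2*, *Dpf1*, *Dpf3*, *Pbrm1*, *Chd4*, *Mta2* and *Hdac1*. With both arrays left out, a setting chosen after the correlations between arrays were seen, *Smarca1* (-0.73, adjusted p = 0.0240) and *Chd3* (-0.34, adjusted p = 0.0481) were called and *Chd9* was not (-0.39, adjusted p = 0.0603).

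**Figure D4:**
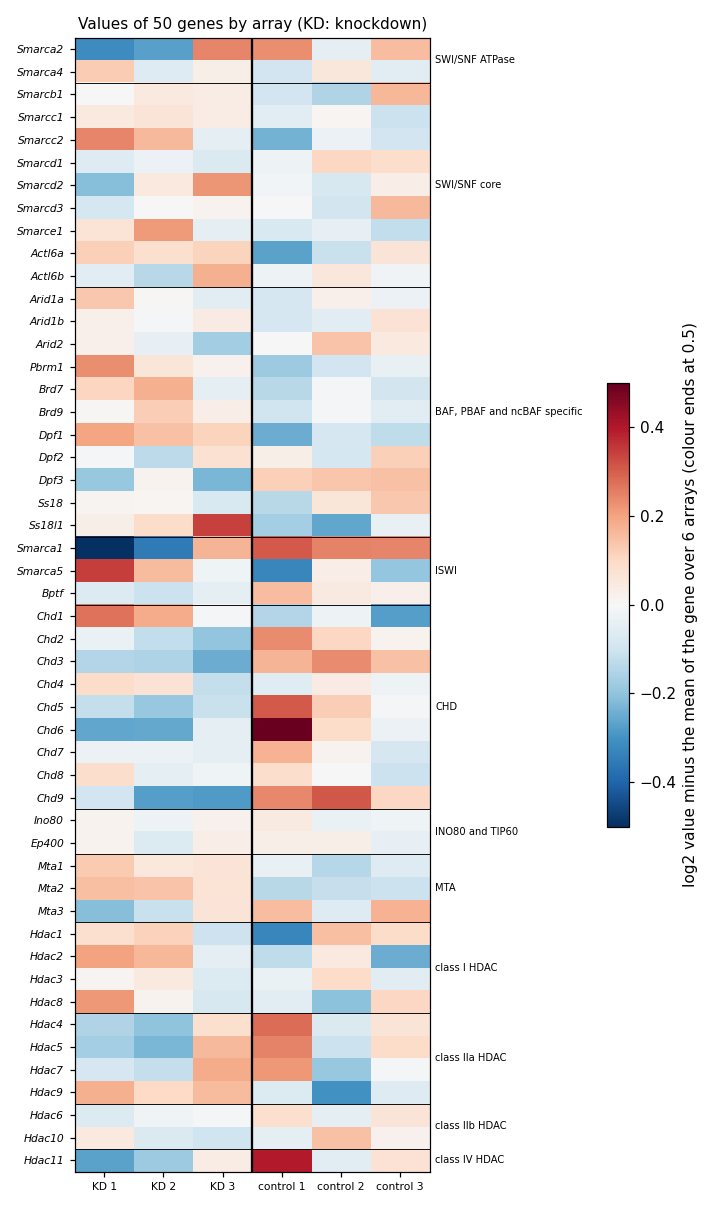
Log2 value of each of the 50 genes minus its mean over the 6 arrays, knockdown arrays (KD 1 to 3) left of control arrays, with colour ending at 0.5. Knockdown 3 is often paler than knockdown 1 and 2 or of the control colour, as in *Smarca1*, *Smarca2* and *Hdac5*, and control 1 is often the most deeply coloured control array, as in *Chd6* and *Hdac11*.

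Of the 50 members, 8 had more than 1 cluster, and in 0 of these did the clusters lie on both sides of 0. Whether clusters of a gene, such as those of *Smarce1*, *Hdac1* and *Chd6*, lie in near-identical copies was not analysed, so their agreement may not be independent. The 30 clusters of *Chd7* lay between -0.16 and -0.02, and the 3 of *Smarce1* between 0.13 and 0.16.

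A second list held further subunits of these complexes and of the SIN3, NCoR and CoREST complexes, together with 6 remodeling-related ATPases outside them and 7 sirtuins, the NAD-dependent deacetylases. It had 81 genes, of which 78 were measured and 40 tested. *Bcl7c* was called higher and *Smarcal1* lower, with 38 tested genes not called, beside 7.54% called over all tested genes. The groups did not overlap in 24 of the 78 (18 higher and 6 lower in the knockdown), beside the 23.5% of all named genes given above. *Bcl7c*, a small SWI/SNF subunit, had 9.33, 9.34 and 9.00 on the knockdown arrays, against 8.66, 8.80 and 8.81 on the control arrays. All knockdown arrays were higher, with knockdown array 3 nearest the controls, and the log2 fold change was 0.47 (1.38-fold higher, 95% interval 0.20 to 0.74, limma adjusted p = 0.0409). The call was lost without any of 5 of the 6 arrays, the exception being knockdown array 3 (adjusted p between 0.0506 and 0.192), while the log2 fold change stayed between 0.41 and 0.50 in those 5 fits. *Smarcal1*, an annealing helicase that restarts replication forks and is listed among the ATPases outside the complexes, had 9.31, 9.41 and 9.62 on the knockdown arrays, against 10.28, 10.14 and 10.18 on the control arrays. The groups were well separated, with a log2 fold change of -0.75 (1.68-fold lower, 95% interval -1.01 to -0.49, limma adjusted p = 0.00364), and it was called whichever array was left out.

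The other SWI/SNF subunits *Bcl7a* and *Bcl7b* were at 0.27 and 0.26, both with no overlap (limma adjusted p = 0.156 and 0.165). Of 7 further NuRD genes, 6 had a positive log2 fold change. Of the 4 tested, 0 were called, beside 7.54% over all tested genes. *Mbd3* was at 0.31, *Gatad2a* at 0.23 and *Mbd2* at 0.22, all with no overlap, and *Gatad2b* at -0.10. Of the 26 other INO80, SRCAP and TIP60 genes, 17 were positive and 9 negative. Over the whole list 52 were positive and 26 negative, beside 58.4% positive over all named genes, with a median log2 fold change of 0.07, against 0.00 in the 50 members and 0.03 over all named genes.

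**Figure D5:**
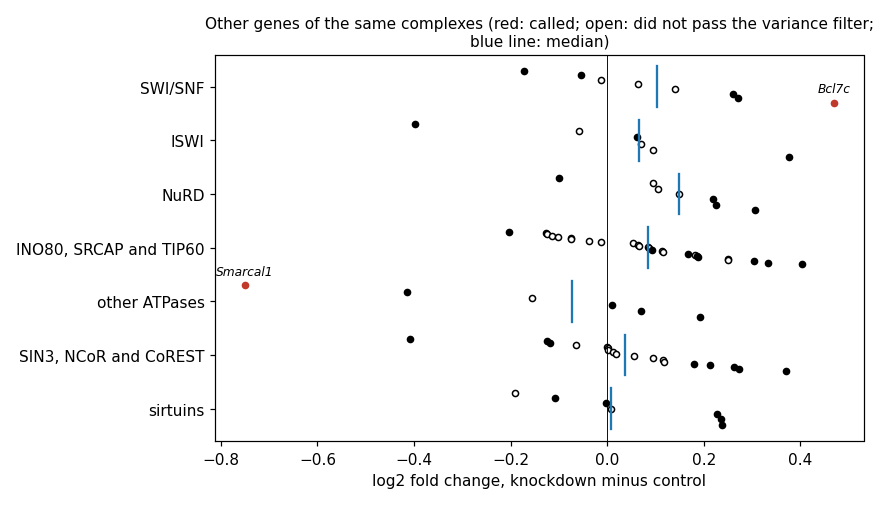
Log2 fold change, knockdown minus control, of 78 further complex genes by complex; filled points passed the variance filter, open points did not, red points were called, and blue lines are medians. *Smarcal1* (-0.75) and *Bcl7c* (0.47) lie at the ends, and most genes of the NuRD row are to the right of 0.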

How the data were processed

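Labelled DNA from 200 ng of RNA per sample was hybridised to Affymetrix Mouse Gene 1.0 ST arrays. Per the labels and the study's methods, the authors corrected the background, quantile normalised and summarised the probes by RMA, so the deposited values are log2 values. The version of RMA is not given in the sources used here. Of 35556 transcript clusters, 21789 had 1 symbol in the platform annotation, 1621 several and 12146 none, and 21698 of those with 1 symbol matched the RefSeq gene table of GRCm38.p6, with 0 symbols changed. Levels of different clusters were not set against each other as amounts, and the number of arrays limits the precision.

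The 50% of genes with the lower interquartile range were removed, which left 9969 of 19938, and limma 3.58.1 under R 4.3.3 (lmFit, then eBayes) gave the contrast of knockdown minus control, adjusted by the Benjamini-Hochberg method over all genes tested. The study's methods name limma and a variance filter; the interquartile range and 1 cluster per gene were chosen here. Members that did not pass the filter took their values from a fit to all 19938 genes. The steps were tested on simulated data. Values on every array are given for called genes, members of the pairs and the member with the largest change in each role; *Chd1*, *Chd3*, *Chd6* and the other complex genes beside *Bcl7c* and *Smarcal1* were named after their values were seen. The members, lists and tests were chosen with earlier results of these data known. Samples were grouped by their labels. The methods call them biological replicates.

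Both groups carry replicate numbers 1 to 3, but the deviations of same-numbered arrays from their group means correlated at -0.29, 0.06 and 0.08, so the numbers were not taken to pair the samples. Alternatives changed the filter, the clusters in the fit, the cluster of a gene, array weights, the eBayes prior, the scaling, the replicate block and the arrays left out. Promoter windows are those of RefSeq, matched by symbol.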

Additional observations from a re-analysis of the deposited data

How the results depend on the processing

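The counts of calls depended on the processing. Over all named genes 752 were called, against 680 with the replicate number as a block, 0 with all transcript clusters in the fit (3015 of them at an unadjusted limma p under 0.05), 5561 with array weights (2896 higher and 2665 lower) and 1623 with control array 1 and knockdown array 3 left out. With 1 array left out the count lay between 112 and 1239, highest without knockdown array 3 and lowest without control array 3. Among the 50 members, 1 was called, against 2 with a filter by sample variance (*Chd9* and *Smarca1*), 2 without a filter (*Chd3* and *Chd9*), 2 with trend and robust eBayes (*Chd9* and *Smarca1*), 2 without control array 1 and knockdown array 3 (*Chd3* and *Smarca1*), 18 with array weights (8 higher and 10 lower), and 0 with all clusters or with arrays centred on their medians (4 and 11 at an unadjusted p under 0.05). With the replicate number as a block 1 member was called, *Smarca1* in place of *Chd9*, and with 1 array left out 0 or 1. *Chd9* missed the threshold with all clusters (adjusted p = 0.194), centred arrays (0.0550) and the block (0.0547). Of the 81 further complex genes 2 were called, also 2 with the block, against 1 without a filter, 0 with all clusters (9 at an unadjusted p under 0.05), 24 with array weights, 6 with trend and robust eBayes and 4 without control array 1 and knockdown array 3, and between 1 and 5 with 1 array left out. *Smarcal1* lost its call with all clusters (adjusted p = 0.121).

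Array weights lay between 0.289 (control array 1) and 4.44 (control array 3), so that fit leaned on few arrays. The cause of the other differences was not tested. Alternatives were run gene by gene for 21 members, *Bcl7c* and *Smarcal1*. Among these the sign turned for *Actl6b* (0.00988 with centred arrays and between -0.101 and 0.0557 with 1 array left out), *Dpf2* (between -0.0945 and 0.0148 with 1 array left out), *Ss18* (between -0.114 and 0.0225), *Chd4* (between -0.00757 and 0.0978) and *Ep400* (0.00508 with array weights, 0.00984 with centred arrays and between -0.0338 and 0.0208 with 1 array left out). With 1 array left out, a plain difference of means turned sign in 13 of all 50 members, whose full values lay between -0.04 and 0.06, for example *Hdac1* without control array 1 (-0.09) and *Smarcd2* without knockdown array 3 (-0.06). The 6 pair differences kept their sign with 1 array left out, but *Dpf3* minus *Dpf2* ran between -0.36 and -0.13, *Ss18l1* minus *Ss18* between 0.22 and 0.42 and *Smarca1* minus *Smarca5* between -1.16 and -0.59; the other pair settings could not change a value, since each pair gene has 1 cluster and the block is balanced. Among the values of these 23 genes under the alternatives, 18 passed the threshold only under the alternative, 18 lost it, 13 turned sign and 296 did none of these. Many of the 296 could not have moved. A gene removed by the filter had no adjusted p and was counted as not called. The settings for the filter, the clusters, the eBayes prior and the block left the log2 fold change of these genes as it was, so its sign could not turn there.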
